A study of Mus musculus with 30 samples.

Results

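Messenger RNA levels of 10 genes that set the shape of mitochondria were followed in mouse hepatocytes depleted of the forkhead factors FoxK1 and FoxK2, before and after insulin. The genes are Mfn1, Mfn2, Opa1, Oma1, Dnm1l, Fis1, Mff, Letm1, Mtch1 and Mtch2, taken by name from the 49089 Ensembl genes of the count tables, and all 10 were found and passed the filter on low counts. The RNA came from AML12 cells, an immortalised line of hepatocytes from mice that carried a transgene for human transforming growth factor alpha, so the cells are a growing line and not liver tissue. The 30 libraries fall into 8 groups. Cells were transfected with non-silencing siRNA (Control), siRNA against Foxk1 (FoxK1 KD), against Foxk2 (FoxK2 KD) or against both (double knockdown, DKD). Each was analysed at basal, without insulin, and after stimulation with 100 nM insulin for 6 h, and every group had been kept overnight in serum-free medium with albumin. Every group had 4 libraries, except Control and DKD after insulin with 3 each. For basal samples the label of treatment time is 0, whereas the protocol describes mock treatment over the same period as insulin. Knockdown was transient and partial, and nothing in the labels says that replicates were separate cultures, so p-values measure the spread between these samples, which may be technical.

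Mitochondria fuse and divide continuously. Mitofusins 1 and 2 (Mfn1, Mfn2) are GTPases that join outer membranes, and Opa1 is the dynamin-like GTPase that joins inner membranes and holds cristae together. Oma1 is the stress-activated metalloprotease of the inner membrane that cuts OPA1 into its short, fusion-inactive form. Division is driven by Drp1 (Dnm1l), a cytosolic dynamin that is drawn to the outer membrane by adaptors such as Mff, with Fis1 as a further outer membrane partner. Letm1 is an inner membrane protein of potassium and calcium exchange with hydrogen ions, whose loss swells the matrix. Mtch1 and Mtch2 are carrier-family proteins of the outer membrane, Mtch2 being a receptor for tBID and an insertase for tail-anchored proteins. In hepatocytes this balance between fusion and division goes along with fuel use, and the fed or fasted state is known to shift it.

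Promoter sequence is shown for 3 members. Letm1 and Mfn2 are the pair that rose with insulin in Control cells by the full threshold given below. Opa1 is the 1 member whose promoter matched a forkhead form searched here, GTAAACA or TAAACA. The stretches are from RefSeq (GRCm38.p6), 5′ to 3′ on the strand of the gene, from outside the annotated gene body. For Letm1 this leaves 150 of the 250 bases searched, without those nearest the start. Mfn2 has several start sites, and the window farthest upstream is shown. Letm1 is at chr5:33782818-33782967 (minus strand), Mfn2 at chr4:147904910-147905159 (minus strand) and Opa1 at chr16:29579084-29579333 (plus strand). Capitals mark a match to TAAACA and a run of overlapping matches to CATGCGC or its reverse complement.
Letm1: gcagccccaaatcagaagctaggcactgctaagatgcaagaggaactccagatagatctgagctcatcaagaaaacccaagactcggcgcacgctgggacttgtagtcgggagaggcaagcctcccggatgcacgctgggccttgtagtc
Mfn2: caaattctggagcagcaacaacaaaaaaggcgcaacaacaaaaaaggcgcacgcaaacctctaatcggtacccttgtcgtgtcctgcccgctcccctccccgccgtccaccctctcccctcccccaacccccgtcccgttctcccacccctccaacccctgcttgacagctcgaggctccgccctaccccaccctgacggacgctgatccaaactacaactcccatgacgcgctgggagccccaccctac
Opa1: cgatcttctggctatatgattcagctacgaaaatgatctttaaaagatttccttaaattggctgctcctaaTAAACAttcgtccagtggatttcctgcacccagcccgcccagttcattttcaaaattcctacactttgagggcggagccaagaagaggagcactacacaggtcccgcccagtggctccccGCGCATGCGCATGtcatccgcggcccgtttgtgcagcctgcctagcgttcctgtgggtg
All 10 members were matched in that table, with 16 windows in all, since some genes have several start sites. Motifs were searched on both strands in the 250 bases before each start. The forkhead core GTAAACA was in 0 of the 16 windows and in 3.16% of all 32817 windows, and its shorter form TAAACA, which lies inside it, was in 1 of the 16 and in 12% of all. That match, in Opa1, lay 174 to 179 bases before the start. CATGCGC is part of the motif of NRF1, the nuclear respiratory factor that drives many genes of mitochondria. This form was chosen after a longer one had been searched and its matches seen. CATGCGC was in 2 of the 16 windows and in 3.23% of all. One of these was the same Opa1 window, with overlapping matches 47 to 59 bases before the start, and the other was that of Mtch2, 49 to 55 bases before it. The ETS core CCGGAAG was in 3 of the 16, in Mfn1, Fis1 and Mtch2, and in 6.9% of all windows. A match of letters is not a bound site, and a window without one says nothing of the factor elsewhere.

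Totals were 2141460 to 5668270 counts per library, and the members had 40 to 1889 counts in a library, with Oma1 lowest. Values below are CPM, counts scaled to a common library size adjusted by the TMM method. The targeted genes fell as labelled: Foxk1 was 81.4 ± 10.4 CPM (SD, n = 4) in Control and 36.8 ± 6.43 in FoxK1 KD at basal, and Foxk2 was 140.2 ± 8.25 in Control and 47.3 ± 3.46 in FoxK2 KD. In DKD at basal, Foxk1 was 46.5 ± 3.43 CPM and Foxk2 50.2 ± 5.69. Foxk2 was also lower in FoxK1 KD at basal, at 117.0 ± 12.1 CPM (0.835-fold). Foxk1 in FoxK2 KD was at 69.9 ± 10.7 CPM, overlapping Control. After insulin Foxk1 was lower in Control, at 53.0 ± 4.46 CPM (n = 3). Foxk1 was then 0.58-fold of Control in FoxK1 KD and 0.65-fold in DKD, against 0.455-fold and 0.568-fold at basal. Foxk2 after insulin was 0.86-fold in FoxK1 KD, 0.40-fold in FoxK2 KD and 0.39-fold in DKD. Of the hepatocyte markers, Apob (253 to 819 CPM), Krt8, Krt18 and Hnf4a were present in every library, but Alb was low (2.5 to 65.2 CPM) and Apoa1 and Fgb were near 0 (medians of 0.37 and 0.40 CPM). Bile duct markers Krt19 and Sox9 were also present (323 to 753 and 168 to 296 CPM) with Epcam at 0 in all 30 libraries, whereas the 6 stellate or fibroblast, 3 endothelial and 3 leukocyte markers summed to at most 1.39, 0.55 and 4.43 CPM. Summed hepatocyte markers were at 2743 to 2821 CPM in DKD at basal, above each Control library (2132 to 2678), and summed bile duct markers at 534 to 609.8 CPM in FoxK1 KD at basal, below each Control library (639 to 1073). With insulin the bile duct sum was higher without overlap in FoxK1 KD (636 to 756) and FoxK2 KD (725 to 869 against 622 to 723), the hepatocyte sum higher in FoxK1 KD (2689 to 2939.7 against 2334 to 2539) and lower in DKD (2336 to 2729). The hepatocyte sum largely follows Krt18, Krt8 and Apob, with medians of 1090, 713 and 591 CPM, beside 137 CPM for Hnf4a. The share of all genes without overlap between these groups was not counted. The part of these marker shifts in the values of the members was not tested. In bulk RNA, fewer cells of a kind and less RNA per cell cannot be told apart.

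A pair of features of the libraries touch the results. First, the 12 libraries of Control, FoxK1 KD and FoxK2 KD at basal differed from the other 18 (DKD at basal and all insulin groups) in transcripts that were near 0 in one set and present in the other. Gm42939 was at 0 to 0.28 CPM in the 12 libraries and at 4.42 to 13.5 CPM in the 18. In total 52 of 11368 tested genes (0.457%) were higher in every one of the 18 than in any of the 12, among them 10 of 251 tested pseudogenes, and 83 (0.73%) were lower. Letm1 was the 1 member among these genes. The labels name no batch. This division runs along the groups, so it cannot be told apart from DKD against Control at basal, from insulin in Control, FoxK1 KD and FoxK2 KD, or from the test of whether insulin acted differently in DKD and Control. Second, Control replicate 1 at basal stood apart, with a root-mean-square log2 distance of 0.486 from the rest of its group, against 0.239 to 0.380 for every other library, and results that rest on it are given with and without it.

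**Figure D1:**
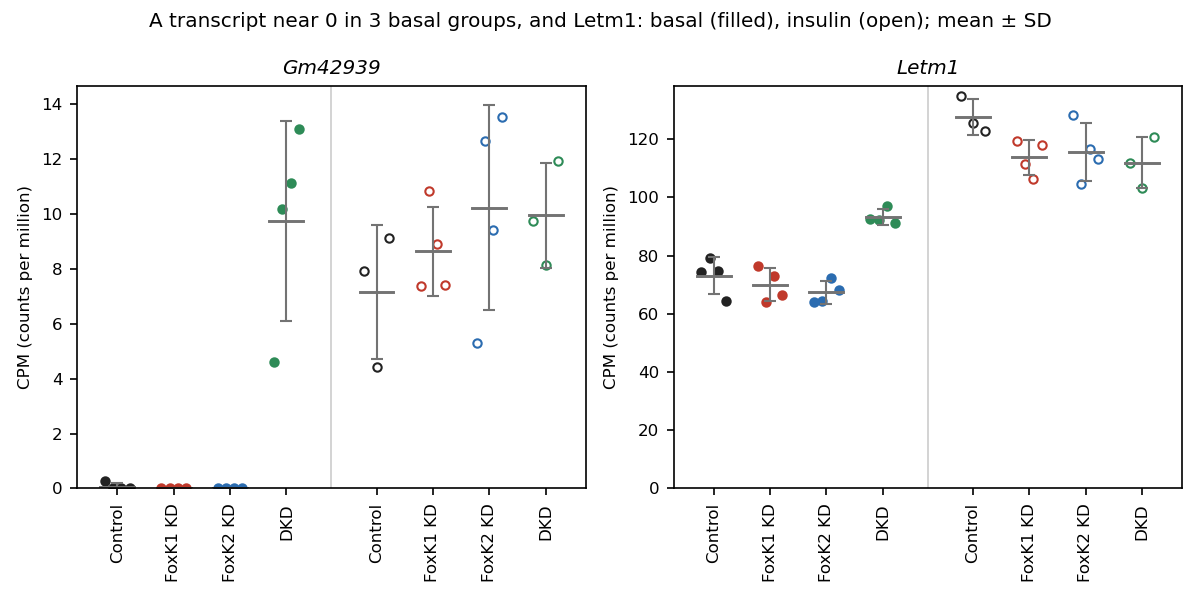
Level in CPM (y axis) of the transcript Gm42939 (left panel) and of Letm1 (right panel) in 30 libraries by group (x axis), basal filled and insulin open, with the mean ± SD of each group. Gm42939 lies at 0 to 0.28 CPM in 3 basal groups and at 4.42 CPM or higher in the other groups, and Letm1 at 64.0 to 79.3 and 91.2 to 134.7 CPM in the same sets of libraries.

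The members differed in abundance and in how far they moved. Per kilobase of exon, the level in Control cells at basal was highest for Fis1 (48.7 ± 11.8 CPM per kb, SD, n = 4), followed by Mtch2 (39.2 ± 1.74), Dnm1l (27.4 ± 2.01), Mtch1 (25.8 ± 5.14) and Opa1 (19.6 ± 2.66). Mfn2 (11.9 ± 1.13), Oma1 (10.4 ± 1.35), Mfn1 (9.74 ± 1.08), Mff (8.86 ± 2.08) and Letm1 (7.58 ± 0.646) lay lower. Neighbours in this order differed by less than the sum of their SDs, except Dnm1l below Mtch2 and Mfn2 below Opa1. Between the lowest and the highest group mean, Letm1 differed by 1.90-fold, Mtch1 by 1.73-fold and Mfn2 by 1.51-fold, and the other 7 members by 1.2-fold (Mff) to 1.4-fold (Fis1).

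**Figure D2:**
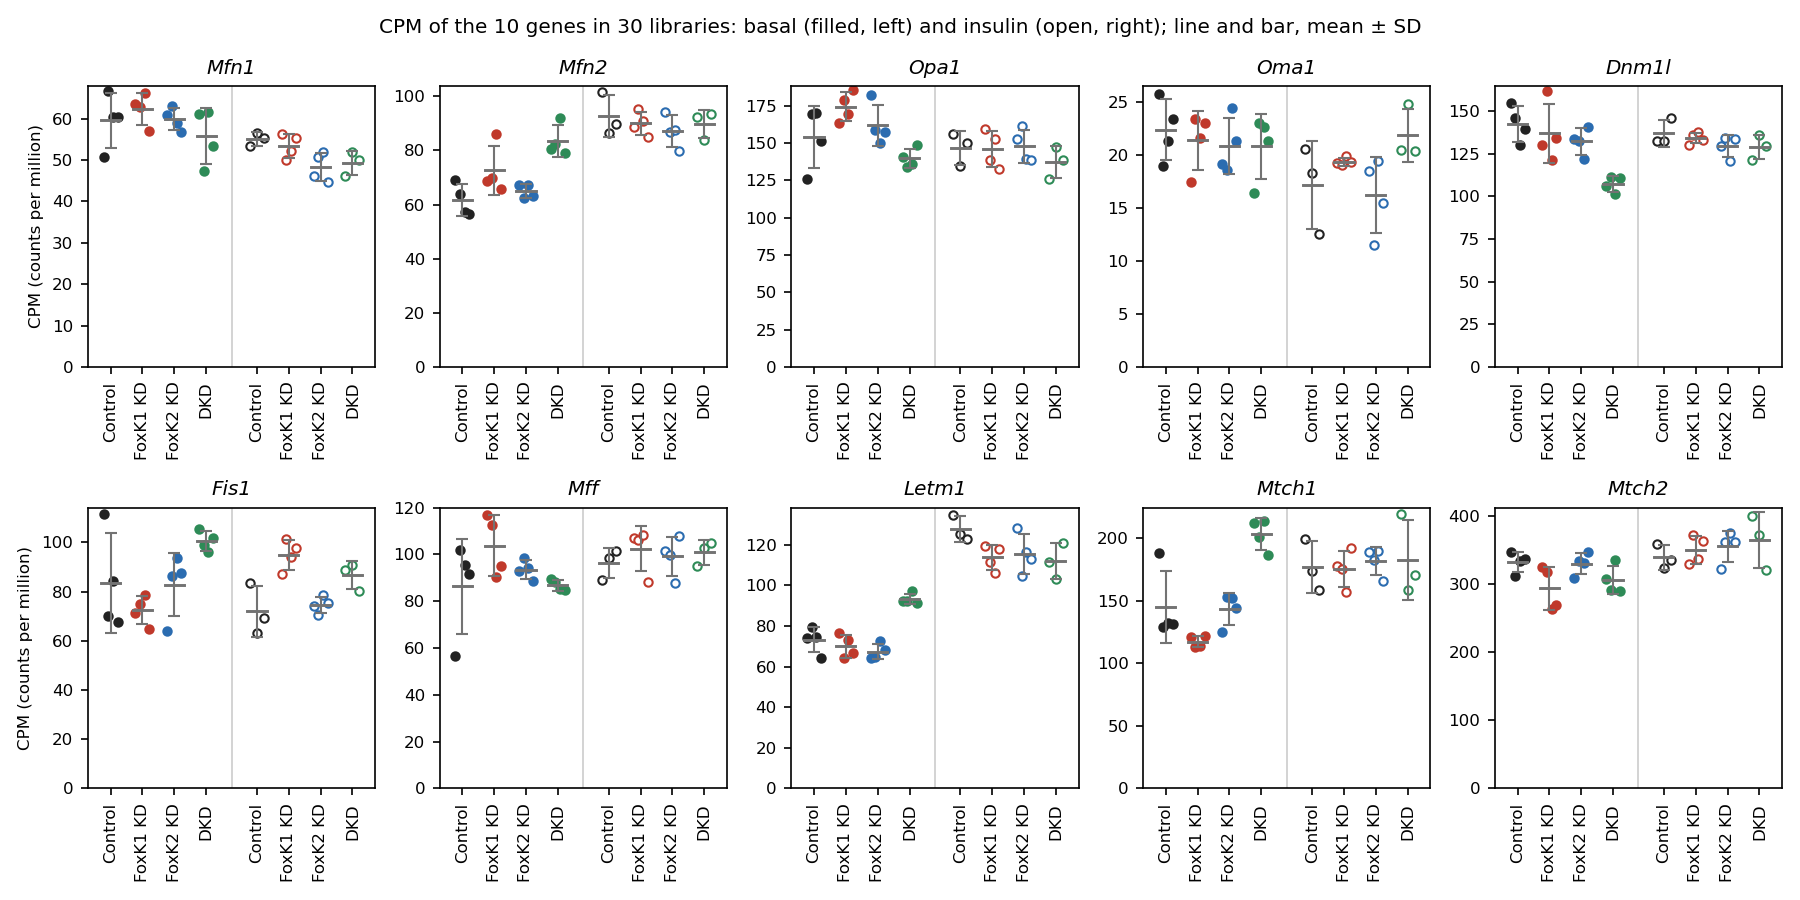
CPM (y axis, from 0) of each of the 10 genes in 30 libraries by group (x axis), 1 point per library, basal filled on the left and insulin open on the right of each panel, with the mean ± SD of each group. Letm1 lies at 64.5 to 79.3 CPM in Control at basal, 91.2 to 97.2 in DKD at basal and 122.9 to 134.7 in Control after insulin, while Mtch2 and Opa1 overlap across most groups.

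The first question was what loss of FoxK1, FoxK2 or both did to these genes without insulin. In DKD cells Mfn2, Letm1, Mtch1 and Fis1 rose and Dnm1l fell, the remaining 5 members not passing the threshold of an FDR below 0.25. FDR here and below is the Benjamini-Hochberg adjusted p of edgeR's quasi-likelihood test over all 11368 tested genes. So 5 of 10 members passed, beside 43.6% of all tested genes (21.2% higher and 22.4% lower), a share near that of genes in general. At an FDR below 0.05, 4 members passed (Mfn2, Dnm1l, Letm1 and Mtch1) beside 21.1% of all genes. The median log2 fold change of the 10 members was -0.05 and that of all genes -6e-04. The study itself names Mfn2, Letm1 and Mtch1 as genes altered in these same DKD samples, and the members were chosen with earlier results known. So neither the direction of these genes here nor the count of members that passed is independent evidence. The mean level of transcripts also moved with base composition in this comparison, as described below.

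On the fusion side, Mfn2 read 68.9, 63.8, 57.3 and 56.4 CPM in the 4 Control libraries and 80.7, 82.3, 92.1 and 79.1 in the 4 DKD libraries. Each DKD library lay above each Control library, and the log2 fold change was 0.44 ± 0.09 (SE; 1.35-fold, 95% interval 0.25 to 0.62 on the log2 scale, edgeR FDR = 0.00058). The other mitofusin, Mfn1, was at 59.5 ± 6.60 CPM in Control and 55.9 ± 6.78 in DKD, with overlapping libraries (log2 fold change -0.10 ± 0.09, edgeR FDR = 0.46). Opa1 was at 125.6 to 170.2 CPM in Control and 134.1 to 148.7 in DKD (-0.14 ± 0.09, edgeR FDR = 0.27), and its protease Oma1 at 19.0 to 25.8 and 16.4 to 23.0 CPM (-0.11 ± 0.15, edgeR FDR = 0.64). The log2 intervals of Mfn1 (-0.29 to 0.09) and Oma1 (-0.42 to 0.20) leave room for changes of either sign.

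On the division side, Dnm1l was the 1 member that fell in DKD. It read 154.8, 145.8, 130.0 and 139.3 CPM in Control and 106.0, 111.1, 101.3 and 110.7 in DKD, without overlap between the groups (log2 fold change -0.41 ± 0.08; 0.755-fold, edgeR FDR = 0.00038). Fis1 read 111.7, 70.0, 84.4 and 67.5 CPM in Control and 105.4, 98.9, 96.3 and 101.9 in DKD. Its groups overlapped because Control replicate 1 exceeded all 4 DKD libraries, and the log2 fold change was 0.28 ± 0.12 (edgeR FDR = 0.079). Mff, the receptor for Drp1, read 56.7, 102.0, 95.5 and 91.6 CPM in Control and 84.7 to 89.6 in DKD, again with replicate 1 apart from the rest (log2 fold change 0.00 ± 0.11, edgeR FDR = 0.99).

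Of the 3 remaining genes, Letm1 read 74.3, 79.3, 74.7 and 64.5 CPM in Control and 92.5, 92.2, 97.2 and 91.2 in DKD. The groups did not overlap and the log2 fold change was 0.35 ± 0.08 (1.28-fold, edgeR FDR = 0.0024). Mtch1 read 188.3, 129.0, 131.7 and 131.1 CPM in Control and 212.2, 200.7, 213.3 and 186.7 in DKD. Only Control replicate 1 reached the DKD range, and the log2 fold change was 0.49 ± 0.10 (1.4-fold, edgeR FDR = 0.00094). Its relative Mtch2, the most counted member, was at 333.1 ± 14.8 CPM in Control and 306.5 ± 21 in DKD (-0.12 ± 0.08, edgeR FDR = 0.29).

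Control replicate 1 moved several of these values. Without it, 8 members passed in DKD, beside 49.3% of all genes: Mtch1 (0.63 ± 0.09, edgeR FDR = 6.2e-06), Mfn2 (0.49 ± 0.09), Fis1 (0.45 ± 0.10, edgeR FDR = 0.0015), Letm1 (0.35 ± 0.09) and Dnm1l (-0.37 ± 0.08), and with lower values Opa1 (-0.23 ± 0.08, edgeR FDR = 0.036), Mfn1 (-0.17 ± 0.09) and Mff (-0.15 ± 0.09). Mfn2, Dnm1l, Letm1 and Mtch1 passed whichever library of the 8 was left out, and Fis1 did not pass without Control replicate 4 (0.19 on the log2 scale). Base composition moved with the comparison as well. Across 11346 genes, Spearman's rho between the log2 fold change in DKD and the GC content of the longest transcript was 0.466, a description over genes that share the same libraries. Genes with a GC content up to 46.2% had a median of -0.17 and those above 52.6% a median of 0.16. The 4 members that rose have a GC content of 53.1% to 56.6%, and Dnm1l has 40.9%. With the trend on GC content and length taken out of each library, Mfn2 (0.34 ± 0.08, edgeR FDR = 0.0039), Letm1 (0.28 ± 0.08, 0.011), Mtch1 (0.33 ± 0.09, 0.010), Dnm1l (-0.21 ± 0.07, 0.042) and Fis1 (0.16 ± 0.09, 0.22) kept their direction and stayed under the threshold, and Mff joined them (0.30 ± 0.09, 0.022). Mff thus read 0.00, -0.15 or 0.30 on the log2 scale by the choice made, and no direction is given for it.

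**Figure D3:**
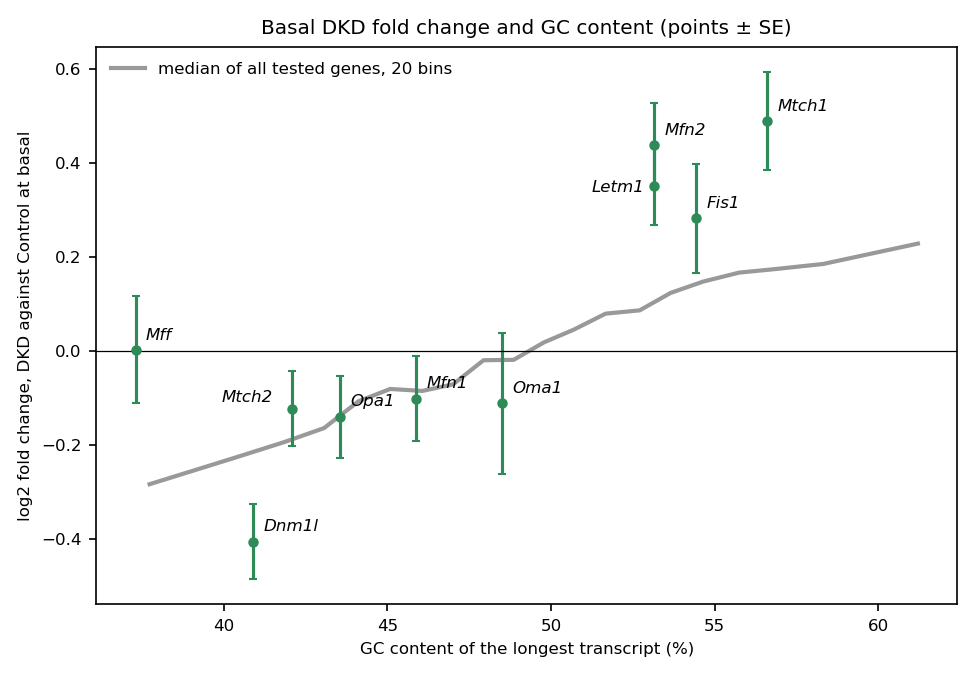
Log2 fold change ± SE in DKD against Control at basal (y axis) against the GC content of the longest transcript in percent (x axis) for the 10 genes, over a grey line of the median of all tested genes in bins of equal gene number. The line climbs from -0.28 at a mean GC content of 37.7% to 0.23 at 61.2%, and Mfn2, Letm1, Fis1 and Mtch1 lie above it while Dnm1l lies below it.

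**Figure D4:**
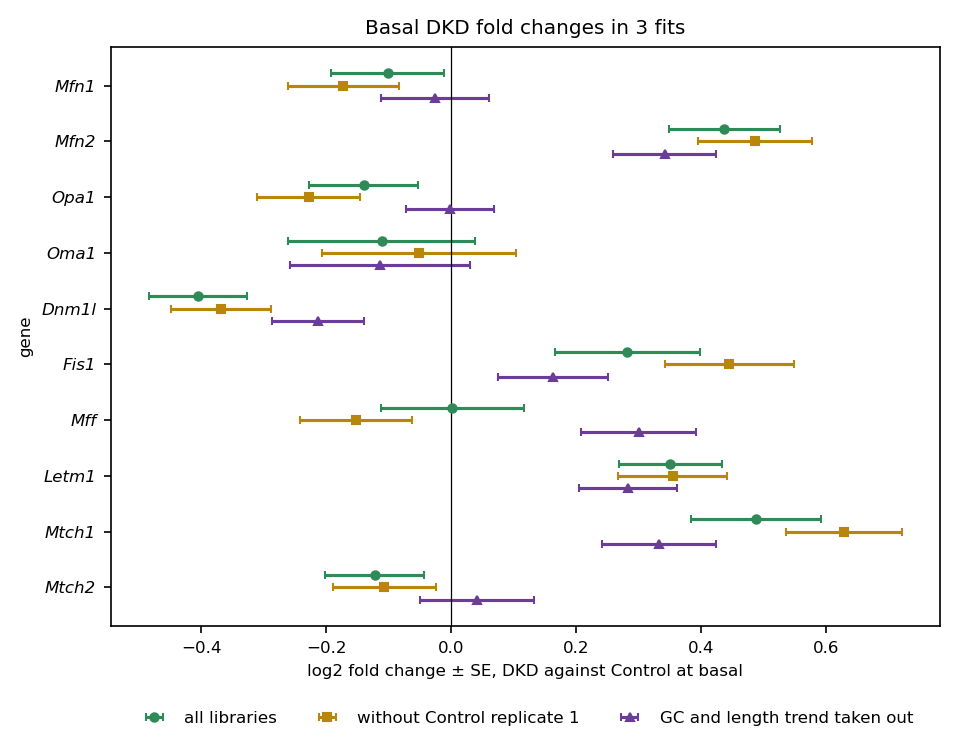
Log2 fold change ± SE (x axis) of the 10 genes (y axis) in DKD against Control at basal, from all libraries (circles), without Control replicate 1 (squares) and with the trend on GC content and length taken out (triangles). Mfn2, Letm1 and Mtch1 lie right of 0 and Dnm1l left of 0 in all 3 fits, and Mff changes sign.

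The single knockdowns came next. In FoxK1 KD at basal, Mfn2, Mff and Opa1 rose and Mtch1 and Mtch2 fell at an FDR below 0.25, 5 of 10 members beside 26.6% of all genes (11.7% higher and 14.9% lower), but 0 of them at an FDR below 0.05 beside 8.09% of all genes. Mfn2 read 68.8, 70.0, 86.1 and 65.8 CPM in FoxK1 KD (log2 fold change 0.25 ± 0.09, edgeR FDR = 0.079) and overlapped the Control libraries. Mtch1 read 120.6, 113.2, 113.4 and 121.8 CPM, each below all 4 Control libraries (-0.30 ± 0.11, edgeR FDR = 0.069), the direction opposite to that in DKD. Mff (0.26 ± 0.11), Opa1 (0.17 ± 0.09) and Mtch2 (-0.18 ± 0.08) had an edgeR FDR of 0.15, 0.21 and 0.16. Without Control replicate 1, Mfn2 alone passed (0.31 ± 0.09, edgeR FDR = 0.048), beside 13.6% of all genes, so calls fell over all genes as well, and Mtch1 fell short (-0.15 ± 0.09, edgeR FDR = 0.45). With the GC and length trend taken out (rho -0.217), Opa1 went to 0.11 and did not pass (edgeR FDR = 0.34). Calls were also lost without single FoxK1 KD libraries: Mfn2 without replicate 3 (0.15 on the log2 scale), Mff without replicate 1 or 2, Mtch2 without replicate 3 or 4, and Opa1 without replicate 2 or 4 or Control replicate 4. In FoxK2 KD at basal 0 of 10 members passed in edgeR, DESeq2 or limma-voom, beside 3.59% of all genes, and 0 had an unadjusted p below 0.05. The log2 fold changes ran from -0.11 ± 0.08 for Letm1 to 0.11 ± 0.11 for Mff, with Dnm1l at -0.11 ± 0.08, and the median was -0.0023. The 3 knockdowns share the same Control libraries, so their values are set side by side and not counted as separate support.

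**Figure D5:**
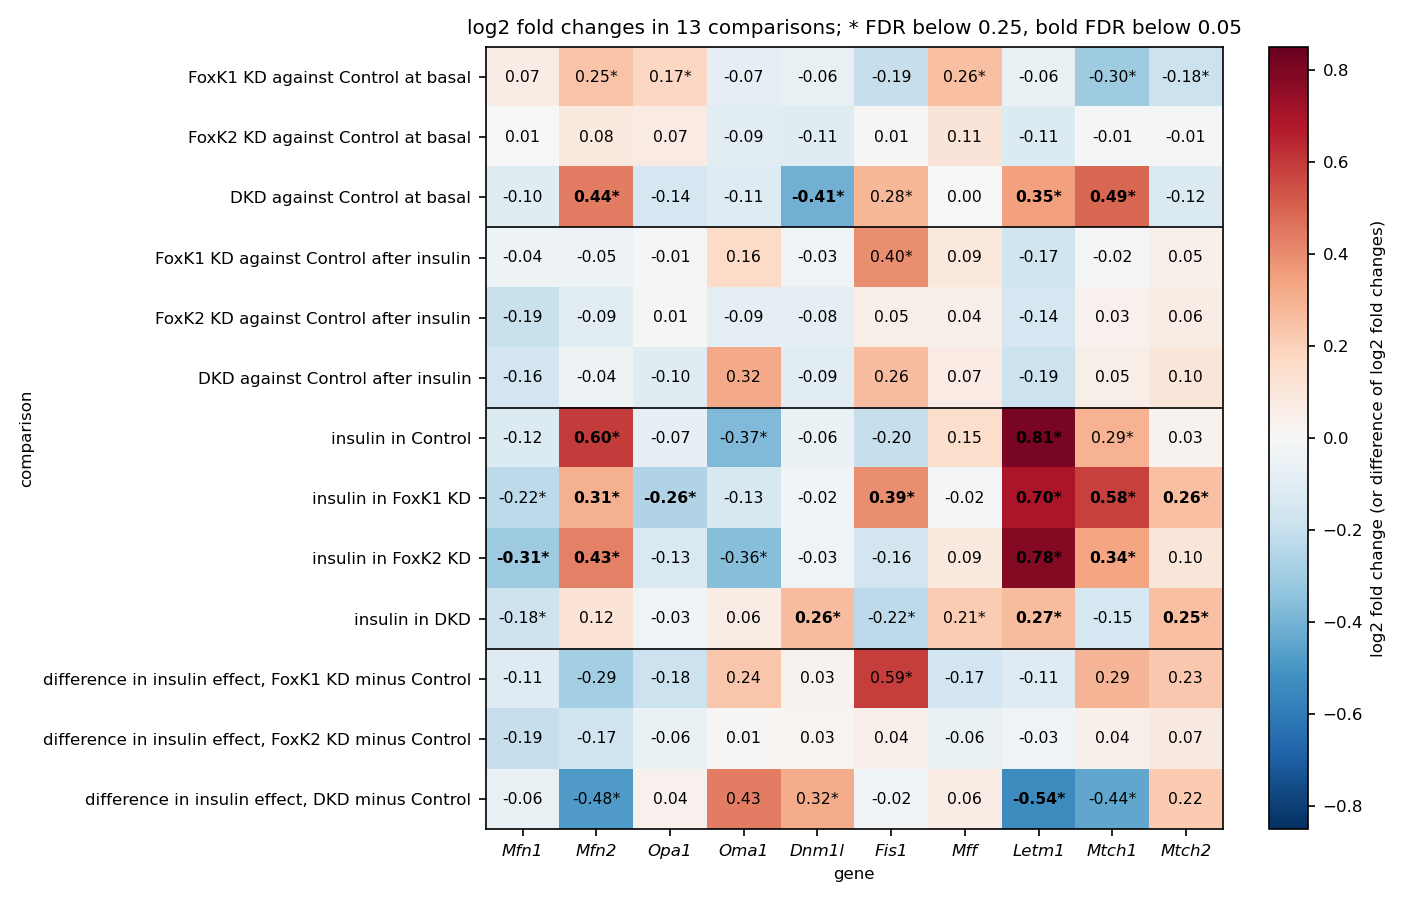
Log2 fold changes (colour and printed value) of the 10 genes (x axis) in 13 comparisons (y axis), in blocks of knockdowns at basal, knockdowns after insulin, insulin effects and differences in insulin effect. A star marks an FDR below 0.25 and bold type an FDR below 0.05, and Letm1 reads 0.81, 0.70 and 0.78 for insulin in Control, FoxK1 KD and FoxK2 KD and 0.27 in DKD.

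The second question was how the same genes respond to insulin. In Control cells Letm1 and Mfn2 rose after insulin, the 2 of 10 members that passed an FDR below 0.25 together with a fold change over 1.5, beside 12% of all genes. Letm1 read 134.7, 125.5 and 122.9 CPM after insulin against 64.5 to 79.3 at basal (log2 fold change 0.81 ± 0.09; 1.75-fold, edgeR FDR = 1.2e-08). Mfn2 read 101.5, 86.6 and 89.9 CPM against 56.4 to 68.9 (0.60 ± 0.09; 1.51-fold, edgeR FDR = 1.2e-05). In both genes each insulin library lay above each basal library. Mfn2 sat at the edge of the fold minimum: without Control insulin replicate 1 or Control basal replicate 3 or 4 it fell below 1.5-fold, with a lowest value of 0.51 on the log2 scale, while its FDR stayed under the threshold. Without the fold minimum 4 members passed beside 46.6% of all genes. The additional ones were Mtch1 (0.29 ± 0.11, edgeR FDR = 0.050), which was at 0.44 ± 0.10 without Control basal replicate 1 and was lost without Control insulin replicate 1, and the protease Oma1 (-0.37 ± 0.17, edgeR FDR = 0.097), which was lost without Control insulin replicate 3. That library held the lowest Oma1 value of its group, 12.6 CPM beside 18.3 and 20.6.

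FoxK1 KD and FoxK2 KD cells gave like values for Letm1. It read 119.3, 111.6, 106.3 and 118.0 CPM in FoxK1 KD after insulin against 64.0 to 76.5 at basal (0.70 ± 0.08; 1.62-fold, edgeR FDR = 8.0e-08), the 1 member to pass with the fold minimum beside 12.9% of all genes. In FoxK2 KD it read 128.3, 104.5, 116.5 and 113.1 CPM against 64.2 to 72.4 (0.78 ± 0.08; 1.72-fold, edgeR FDR = 5.8e-09), again the 1 member to pass, beside 10.7% of all genes. Without the fold minimum 7 members passed in FoxK1 KD, beside 54% of all genes. They were Letm1, Mtch1 (0.58 ± 0.11, edgeR FDR = 8.6e-05; 1.496-fold, just under the minimum, and over it without FoxK1 KD basal replicate 1 or 4 or insulin replicate 3), Fis1 (0.39 ± 0.12), Mfn2 (0.31 ± 0.09) and Mtch2 (0.26 ± 0.08), which were higher after insulin, and Opa1 (-0.26 ± 0.09) and Mfn1 (-0.22 ± 0.09), which were lower. In FoxK2 KD 5 members passed on the FDR alone, beside 49.5% of all genes: Letm1, Mfn2 (0.43 ± 0.09, edgeR FDR = 0.00035) and Mtch1 (0.34 ± 0.10, 0.014) upward, and Mfn1 (-0.31 ± 0.09, 0.010) and Oma1 (-0.36 ± 0.15, 0.073) downward. Oma1 in FoxK2 KD did not pass without insulin replicate 2, its lowest library at 11.6 CPM. Base composition moved with the insulin effects too, with a Spearman's rho of 0.076 in Control, 0.326 in FoxK1 KD and 0.241 in FoxK2 KD over 11346 genes. With the GC and length trend taken out, Mff was higher after insulin in all 3, by 0.26 (edgeR FDR = 0.045), 0.22 (0.063) and 0.25 (0.030) on the log2 scale, against 0.15, -0.02 and 0.09 without it. In FoxK1 KD Opa1 went to -0.12 (edgeR FDR = 0.22), Fis1 to 0.23 (0.057) and Mtch2 to 0.43 (0.00056), and Dnm1l passed at 0.13 (0.19). In FoxK2 KD Mtch2 (0.20, edgeR FDR = 0.088) and Fis1 (-0.20, 0.098) passed, as did Fis1 in Control (-0.17, 0.21). The insulin responses of these 3 genotypes compare the 12 basal libraries with libraries of the other 18, and the part of that division in them cannot be told apart.

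In DKD cells Letm1, Dnm1l and Mtch2 were higher after insulin, by less than the fold minimum. With that minimum 0 of 10 passed in edgeR, DESeq2 or limma-voom, beside 8.49% of all genes, although 3 members had an unadjusted p below 0.05. This is the 1 insulin response measured within the 18 like libraries. Letm1 read 111.7, 103.3 and 120.9 CPM after insulin against 91.2 to 97.2 at basal, with no overlap (0.27 ± 0.09; 1.21-fold, edgeR FDR = 0.029). Dnm1l read 121.5, 135.8 and 129.3 CPM against 101.3 to 111.1, also with no overlap (0.26 ± 0.09, edgeR FDR = 0.035). Mtch2 read 401.3, 373.0 and 320.5 CPM against 290.9 to 335.9 (0.25 ± 0.09, edgeR FDR = 0.039), its lowest insulin library lying inside the basal range. On the FDR alone 6 members passed, beside 37.3% of all genes. The other 3 were close to the threshold: Mfn1 (-0.18 ± 0.10), Fis1 (-0.22 ± 0.13) and Mff (0.21 ± 0.12) had an edgeR FDR of 0.240, 0.240 and 0.246. Mff was lost whichever of the 7 libraries was left out, Fis1 without any but DKD basal replicate 3, and Mfn1 without any but DKD basal replicate 2 or 4. With the GC and length trend taken out (rho -0.211 in this comparison), Fis1 and Mff did not pass, Dnm1l went to 0.16 (edgeR FDR = 0.16), Mtch2 to 0.18 (0.21), and Mfn2 passed at 0.16 (0.22). Mfn2 was at 83.5 ± 5.84 CPM at basal and 89.9 ± 5.17 after insulin (0.12 ± 0.09, interval -0.08 to 0.31, edgeR FDR = 0.44).

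Whether the insulin effect itself differed between DKD and Control was tested as an interaction. With a fold minimum of 1.5 on the difference, 0 of 10 members passed in edgeR, DESeq2 or limma-voom, beside 4.04% of all genes, and 4 had an unadjusted p below 0.05. On the FDR alone 4 passed, beside 9.88% of all genes. The insulin effect on Letm1 was 0.81 on the log2 scale in Control and 0.27 in DKD, a difference of -0.54 ± 0.12 (95% interval -0.79 to -0.28, edgeR FDR = 0.019). For Mfn2 the insulin effects were 0.60 and 0.12, a difference of -0.48 ± 0.13 (edgeR FDR = 0.054). Both differences passed whichever of the 14 libraries was left out. Mtch1 moved by 0.29 in Control and -0.15 in DKD (difference -0.44 ± 0.16, edgeR FDR = 0.16), and Dnm1l by -0.06 and 0.26 (0.32 ± 0.12, edgeR FDR = 0.19). These differences rested on single libraries: Mtch1 was lost without DKD basal replicate 1, DKD insulin replicate 2 or 3 or Control insulin replicate 1, and Dnm1l without DKD basal replicate 1 or 3, Control insulin replicate 1 or 2 or DKD insulin replicate 2 or 3. Base composition moved with this difference too (Spearman's rho -0.307). With the GC and length trend taken out, Dnm1l was lost as well (0.17, edgeR FDR = 0.54). Letm1 (-0.46, edgeR FDR = 0.039), Mfn2 (-0.41, 0.083) and Mtch1 (-0.34, 0.239) were smaller in size and stayed under the FDR threshold. Conversely, single members passed with the fold minimum when a library was left out: Mtch1 without Control basal replicate 1 (-0.59) or DKD insulin replicate 1 (-0.61), Letm1 without DKD insulin replicate 3 (-0.60) and Oma1 without Control insulin replicate 1 (0.60). The 4 genes are the ones called in DKD at basal at an FDR below 0.05, and both contrasts contain the same DKD and Control basal libraries. Their levels after insulin in DKD and Control were 112.0 ± 8.80 and 127.7 ± 6.22 CPM for Letm1 (SD, n = 3 each, each DKD library below each Control library), and with overlap between the libraries 89.9 ± 5.17 and 92.7 ± 7.84 for Mfn2, 182.7 ± 32.0 and 177.1 ± 20.7 for Mtch1, and 128.9 ± 7.19 and 137.0 ± 7.70 for Dnm1l.

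For the single knockdowns, 1 member had an insulin effect that differed from that in Control. Fis1 was higher after insulin in FoxK1 KD (0.39 ± 0.12) and lower in Control (-0.20 ± 0.13, edgeR FDR = 0.27), a difference of 0.59 ± 0.18 (1.51-fold, edgeR FDR = 0.19), 1 of 10 members beside 1.55% of all genes, or 3.4% on the FDR alone. Without Control basal replicate 1, whose Fis1 level of 111.7 CPM was the highest of its group, the difference was 0.41 (edgeR FDR = 0.38). With the GC and length trend taken out (rho 0.316 in this comparison), the difference was 0.40 (edgeR FDR = 0.245), below the fold minimum. With the fold minimum the call was lost in 10 of the 15 fits that left out a library: Control basal replicate 1 or 3, any FoxK1 KD basal replicate, Control insulin replicate 2 or 3, and FoxK1 KD insulin replicate 2 or 4. On the FDR alone it was lost in 7 of them, the exceptions being Control basal replicate 3 and FoxK1 KD basal replicates 1 and 4. For FoxK2 KD 0 of 10 members differed, and 0 of 11368 genes did with edgeR, DESeq2 or limma-voom, while 625 genes and 0 members had an unadjusted p below 0.05.

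Knockdowns and Control were also compared after insulin. In DKD 0 of 10 members passed in edgeR, DESeq2 or limma-voom, beside 6.66% of all genes, and 1, Letm1, had an unadjusted p below 0.05 (-0.19 ± 0.09, edgeR FDR = 0.39). Mfn2 differed by -0.04 ± 0.10, with an interval of -0.25 to 0.16, and Mtch1 by 0.05 ± 0.12. The largest values were those of Oma1 (0.32 ± 0.18, interval -0.05 to 0.70) and Fis1 (0.26 ± 0.14, interval -0.03 to 0.54). Such intervals leave room for a rise, so a test that did not pass is not evidence of equal levels. Without Control insulin replicate 1, Fis1 passed (0.38 ± 0.15, edgeR FDR = 0.23). In FoxK1 KD Fis1 was the 1 member to rise, beside 15.1% of all genes. It read 87.2, 101.5, 94.0 and 97.6 CPM against 83.6, 63.2 and 69.2 in Control, with no overlap (0.40 ± 0.13; 1.32-fold, edgeR FDR = 0.085), and the call was lost without Control insulin replicate 2 (0.29 on the log2 scale). In FoxK2 KD 0 of 10 passed in edgeR, DESeq2 or limma-voom, beside 0.238% of all genes, and 0 had an unadjusted p below 0.05. These 3 comparisons lie within the 18 like libraries.

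Other genes of mitochondrial shape were counted from a list of 48, of which 47 were matched and 44 tested. In DKD at basal 10 rose and 10 fell, 45.5% of the 44 beside 43.6% of all genes, with a median log2 fold change of -0.03. By group, 2 of 7 tested fusion and outer membrane partners rose and 1 fell, as did 2 and 1 of 7 inner membrane proteases and prohibitins, 2 and 1 of 9 division adaptors, 2 and 2 of 7 genes of cristae contact sites, 1 and 3 of 10 inner membrane and cardiolipin genes, and 1 and 2 of 4 transport adaptors. The genes furthest up were Pgs1, an enzyme of cardiolipin synthesis (0.46 ± 0.10, edgeR FDR = 0.00088), the prohibitin Phb (0.43 ± 0.13, 0.013) and the outer membrane ubiquitin ligase Mul1 (0.38 ± 0.13, 0.036). Furthest down were Prelid1, a carrier of phosphatidic acid (-1.10 ± 0.27, 0.0035), the Drp1 receptor Mief1 (-0.30 ± 0.09, 0.012) and the OPA1 protease Yme1l1 (-0.29 ± 0.10, 0.041). In FoxK1 KD at basal 4 rose and 10 fell (31.8% of 44 beside 26.6% of all genes). In FoxK2 KD 2 fell (4.55% of 44 beside 3.59% of all genes). After insulin the knockdowns had 5 (FoxK1 KD), 0 (FoxK2 KD) and 1 (DKD) of 44, beside 15.1%, 0.238% and 6.66% of all genes.

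With insulin in Control 3 of the 44 rose and 3 fell with the fold minimum, 13.6% beside 12% of all genes. On the FDR alone 14 were higher and 7 lower, beside 22.1% and 24.5% of all genes. Named by the same rule, the genes furthest up were the actin nucleator Spire1 (0.99 ± 0.27, edgeR FDR = 0.0057), Pgs1 (0.80 ± 0.10, 3.2e-07) and Mtfr2 (0.76 ± 0.19, 0.0033). Furthest down were 2 relatives of Letm1, Letm2 (-1.24 ± 0.42, edgeR FDR = 0.028) and Letmd1 (-0.78 ± 0.11, 3.7e-06), opposite in sign to Letm1, and then the deubiquitinase Usp30 (-0.45 ± 0.17, 0.049), which did not reach the fold minimum. With the fold minimum 3, 1 and 1 of the 44 passed for insulin in FoxK1 KD, FoxK2 KD and DKD. The shares of all genes were 12.9%, 10.7% and 8.49%.

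Likeness of pattern was measured as the root-mean-square difference of centred log2 group means over the 8 groups, among 53 other members and listed genes, as a description without a test. Letm1 was nearest to Pgs1 (0.121, beside a root-mean-square of 0.346 for Letm1 around its own mean), Mtch1 to Phb (0.0948 beside 0.241) and Mfn2 to Dnm2, the dynamin of the cell surface and of late division steps (0.0938 beside 0.215). Mfn1 was nearest to Opa1 (0.0792 beside 0.122), Opa1 to Marchf5 (0.0586 beside 0.105) and Dnm1l to Yme1l1 (0.0690 beside 0.115). Fis1 was nearest to Micos13 (0.122 beside 0.167). For Mff the nearest gene, Trak1 (0.0983 beside 0.101), lay nearly as far off as a gene with no change between groups would. Those of Oma1 and Mtch2, Miga1 (0.132 beside 0.161) and Tamm41 (0.0799 beside 0.100), lay only somewhat nearer. The 8 means come from the same 30 libraries for every gene, so this order describes these libraries only.

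The members are protein-coding genes, and the GRCm38 annotation lists 0 pseudogenes named after any of them (gene symbol followed by -ps). Pseudogenes under other names, such as Gm numbers, were not searched, so reads shared with such copies were not checked. Letm1 (ENSMUSG00000005299) lies at chr5:33739673-33782817 on the minus strand, Mfn2 (ENSMUSG00000029020) at chr4:147873599-147904704 (minus), Mtch1 (ENSMUSG00000024012) at chr17:29332072-29347934 (minus), Dnm1l (ENSMUSG00000022789) at chr16:16312230-16358959 (minus) and Fis1 (ENSMUSG00000019054) at chr5:136953275-136966234 (plus). Counts are sums over all transcripts of a gene, so isoforms, such as the splice forms of Opa1, Dnm1l and Mff that differ in function, were not separated, and without a stated strand setting reads of an overlapping antisense gene would be included.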

How the data were processed

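The members and gene lists were chosen with earlier results of these data known. Per the labels' processing notes, reads were handled with CASAVA 1.8, aligned with STAR 2.4.2a to GRCm38.p4 and counted per gene with featureCounts. The annotation and strand setting are not given in the sources used here. The authors deposited raw counts per Ensembl gene, without normalization, in 1 table per library. Identifiers were matched to GENCODE M21 (GRCm38) without version, and 48435 of 49089 were found. Genes passing filterByExpr (11368) were scaled by TMM and fitted in 1 model of 8 groups (edgeR 4.0.16, R 4.3.3, glmQLFit and glmQLFTest), with Benjamini-Hochberg adjustment. The study used limma, kept here as an alternative (limma-voom 3.58.1), with DESeq2 1.42.0. Knockdowns were called at an FDR below 0.25, and insulin effects and their differences also needed a fold change above 1.5. SE was derived from the log2 fold change and the F statistic (its size over the root of F), and 95% intervals use 22 residual degrees of freedom. Scripts were tested on simulated counts. Pairs of libraries within groups were checked for copies, and among 42 pairs the chi-square per degree of freedom was at least 1.75. The colour plot of log2 fold changes holds all members in every comparison, but in several comparisons the text names only some or none. Foxk1 and Foxk2 were tested in the same comparisons, but the text gives only their levels and folds against Control. From the wider list, for DKD at basal and insulin in Control, the 3 genes furthest up and down at an FDR below 0.05 with a mean log2-CPM of at least 1 were named. Alternatives were other tools, count filters, thresholds, a GC content and length offset, a replicate block, fits of only the groups compared and leaving out each library. The NRF1 motif was shortened to CATGCGC after a longer form had been searched and its matches seen.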

Additional observations from a re-analysis of the deposited data

Results flagged for a closer look

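In groups of 4 libraries, 60 sets of values were checked for a library far from the others, and 2 stood out, where chance gives about 1 in 20, or 3.0. Mtch1 in Control replicate 1 at basal was at 188.3 CPM, beside 129.0 to 131.7 in the other 3 libraries. Mff in FoxK1 KD replicate 4 after insulin was at 88.3 CPM, beside 106.0 to 108.4.

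An insulin effect that differed between a knockdown and Control, by edgeR's interaction test at an FDR below 0.25 alone, was found for 5 combinations. Of all tested genes, 3.4% passed in this way for FoxK1 KD, 0% for FoxK2 KD and 9.88% for DKD. With the fold minimum that a call also needed, Fis1 in FoxK1 KD passed and none of those in DKD did. The differences on the log2 scale were 0.59 for Fis1 in FoxK1 KD, and in DKD -0.54 for Letm1, -0.48 for Mfn2, -0.44 for Mtch1 and 0.32 for Dnm1l. Those in DKD contain the basal DKD and Control libraries, which lie in different sets of the 12 and 18 libraries, and the part of that division cannot be told apart.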

How the results depend on the processing

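Of 38 log2 fold changes of single members with an FDR below 0.25, 0 reversed under any alternative. DESeq2 left 35 under the threshold, limma-voom 36, the offset for GC content and length 34, a minimum of 10 counts in every sample 38, 1 count in any sample 31 and fits of only the groups compared 28. In the counts of members that follow, the percent in brackets is that of all genes called. For FoxK1 KD at basal (5 members, 26.6%), 0 passed an FDR below 0.05 (8.09%), 0 when a 1.5-fold minimum was added (3.6%), 2 with 1 count in any sample (9.68%), 0 with only the groups compared (9.19%), and 1 to 6 when a library was left out (13.6% to 31.6%). For DKD at basal (5, 43.6%), 0 reached 1.5-fold (7.6%), and leaving out a library gave 4 to 8 (34.9% to 49.3%). The wider list in DKD at basal (20 of 44) gave 9 at an FDR below 0.05 (21.1%), 1 with the fold minimum (7.6%), 13 with 1 count in any sample (17.5%), 13 with only the groups compared (34.4%), and 15 to 21 with a library left out. After insulin, FoxK1 KD (1, 15.1%) gave 0 at an FDR below 0.05 (3.59%), 0 with the fold minimum (3.31%), 2 with the GC and length offset (Letm1 added, -0.19; 18.4%) and 0 to 1 with a library left out (9.81% to 14.3%), and DKD (0, 6.66%) gave 0 to 1 (2.77% to 7.73%). Insulin in Control (2, 12%) gave 4 without the fold minimum (46.6%), 1 with 1 count in any sample (7.27%), 1 with the GC and length offset (11.9%), and 1 to 2 with a library left out (11.6% to 13.5%). Without the fold minimum insulin in FoxK1 KD (1) gave 7 (54%), in FoxK2 KD (1) 5 (49.5%) and in DKD (0) 6 (37.3%), and FoxK1 KD gave 1 to 2 with a library left out (12.2% to 13.8%). The difference for FoxK1 KD (1, 1.55%) gave 0 at an FDR below 0.05, with limma-voom, with a minimum of 10 counts in every sample or 1 in any, with the GC and length offset, and with only the groups compared (0% to 1.82%), and 0 to 1 with a library left out (0.141% to 4.6%). The difference for DKD (0, 4.04%) gave 4 without the fold minimum (9.88%) and 0 to 1 with a library left out (2.44% to 5.04%). The cause of these changes was not tested.

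Replicate numbers are shared between groups. Deviations of same-numbered libraries had a mean correlation of -0.0134 over 99 pairs, 8 of them over 0.1. For other pairs it was 0.0043 over 294, 41 of them over 0.1. These values show no pairing, but they cannot tell how the libraries were handled. With a replicate block insulin in Control gave 1 member in place of 2, and 37 of the 38 single values kept their side of the threshold. With the block and the GC and length offset together, insulin in Control gave 1 member, the difference for FoxK1 KD gave 0, and 32 of 38 kept their side.

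At 40 to 131 counts a library, Oma1 had the largest standard errors of the members (0.144 to 0.234 on the log2 scale), and a difference in insulin effect as large as 0.43 ± 0.23 did not pass for it (DKD minus Control, edgeR FDR = 0.40).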
